A study of Mus musculus with 2 samples.

Results

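The sites described here are the CTCF summits in and within 20 kb of 10 imprinted mouse genes: Peg3, Usp29, Zim1, Peg10, Sgce, Mest, Plagl1, Gnas, Igf2r and Airn. They were taken by position alone, from the optimal list of peaks thresholded by the irreproducible discovery rate (IDR). Of 54943 optimal summits on the assembled chromosomes, 36 lay in these windows, 33 of them inside a member gene and 3 in the flanks only. The 10 genes form 6 loci: the Peg3 domain with Zim1, Peg3 and Usp29 on chromosome 7, Peg10 with Sgce and, apart from them, Mest on chromosome 6, Plagl1 on chromosome 10, Gnas on chromosome 2, and Igf2r with Airn on chromosome 17. The chromatin came from embryonic lung of the B6NCrl mouse strain at day 14.5, from male and female embryos whose lungs had been pooled over several dissections and pulverised. There was 1 group of 2 ChIP-seq samples, biological replicates 1 and 2, with no treatment, mutant or second tissue. The labels give them 1 biosample and 1 donor record in common, and their differences may therefore be only technical. Peak lists hold no read counts, so the depth of each sample is unknown, and they do not separate the parental alleles. All positions are on mm10 (GRCm38), as 1-based coordinates, and genes are from GENCODE release M21, and sequence is from the RefSeq copy of GRCm38.

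Imprinted genes are expressed from only the maternal or only the paternal copy. At most of the loci described here a promoter rich in CpG is methylated in the oocyte, the maternal copy keeps that methylation in the embryo, and the unmethylated paternal copy is transcribed. ZFP57, a zinc finger protein, is known to bind the word TGCCGC in methylated DNA and to maintain it. CTCF is a zinc finger protein of insulators and loop anchors, whose binding is blocked by CpG methylation in some of its sites, as textbooks describe for H19. No methylation was measured in these samples, so the methylated state of each promoter is textbook background. It does not hold for every gene end listed: Zim1 and Igf2r are expressed from the maternal copy, and the methylated element of the Igf2r locus is the Airn promoter.

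The CTCF binding word has a direction, and the strand of a match tells which way a site points. The matches of the 5 strongest matched sites are shown first, because they carry most of the strong signal away from the promoters. Each is written 5′ to 3′ along its motif strand, with the 20 bases aligned to the matrix in capitals and 5 flanking bases on each side in lower case. Sites are numbered from low to high coordinate within each locus.
Plagl1 site 2, chr10:13087396-13087415, plus strand: caaagGCCACTAGAGGGTGCACGTGatctt
Igf2r and Airn site 7, chr17:12810656-12810675, minus strand: gttatACCACAAGGGGGCACTATTGctgca
Peg3 domain site 9, chr7:6937309-6937328, minus strand: catcgGCCAGCAGGTGGCGCACATAggata
Peg3 domain site 8, chr7:6918454-6918473, minus strand: aagctGCCAGTAGAGGGCACCCGCGatcat
Peg3 domain site 10, chr7:6940934-6940953, plus strand: ttgctGCCACCAGATGGCGGTAGACaccga

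The next 4 matches lie at or near transcript starts in the Peg3 and Gnas loci. They are shown because each holds CpG dinucleotides inside the match, and this choice was made after their values were seen. The set is not complete: Gnas site 9, also near a start, holds a CpG in its match and is not shown. The match of Peg3 domain site 2, near a Zim1 start, holds none.
Peg3 domain site 6, chr7:6729264-6729283, plus strand: ggaagGCCGCGAGATGGCAGCATTCgtgcg
Gnas site 1, chr2:174284161-174284180, minus strand: agtggGCCGGCAGGTGGCAGGCGGGaacct
Gnas site 2, chr2:174295447-174295466, minus strand: ggaggTCCAATAGGGGGCGCCGCGTtggaa
Gnas site 4, chr2:174297470-174297489, minus strand: tctctGCCGCCAGAGGACGCAGGTCtcagt

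CTCF signal at the member genes ranged from 13.7 to 308.9, with a median of 56.7. The median over all optimal sites was 62.3. The signal is the authors' own value for each peak, as the peak caller gave it, and for all 36 sites it was that of the peak called on pooled reads. Within the optimal list the median percentile of the 36 sites was 47.0. Of the 36, 16 lay above the median of the list, 9 in the strongest 25%, 2 in the strongest 10% and 7 in the weakest 25%. The windows together spanned 958.4 kb and held 37.6 sites per Mb, beside 20.8 per Mb of sequenced genome. Density was 87.9 per Mb in the Gnas window and between 23.8 and 36.7 per Mb in the other 5. The windows were chosen around genes and the genome figure was not matched for gene content, so this is a description with no test.

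**Figure D1:**
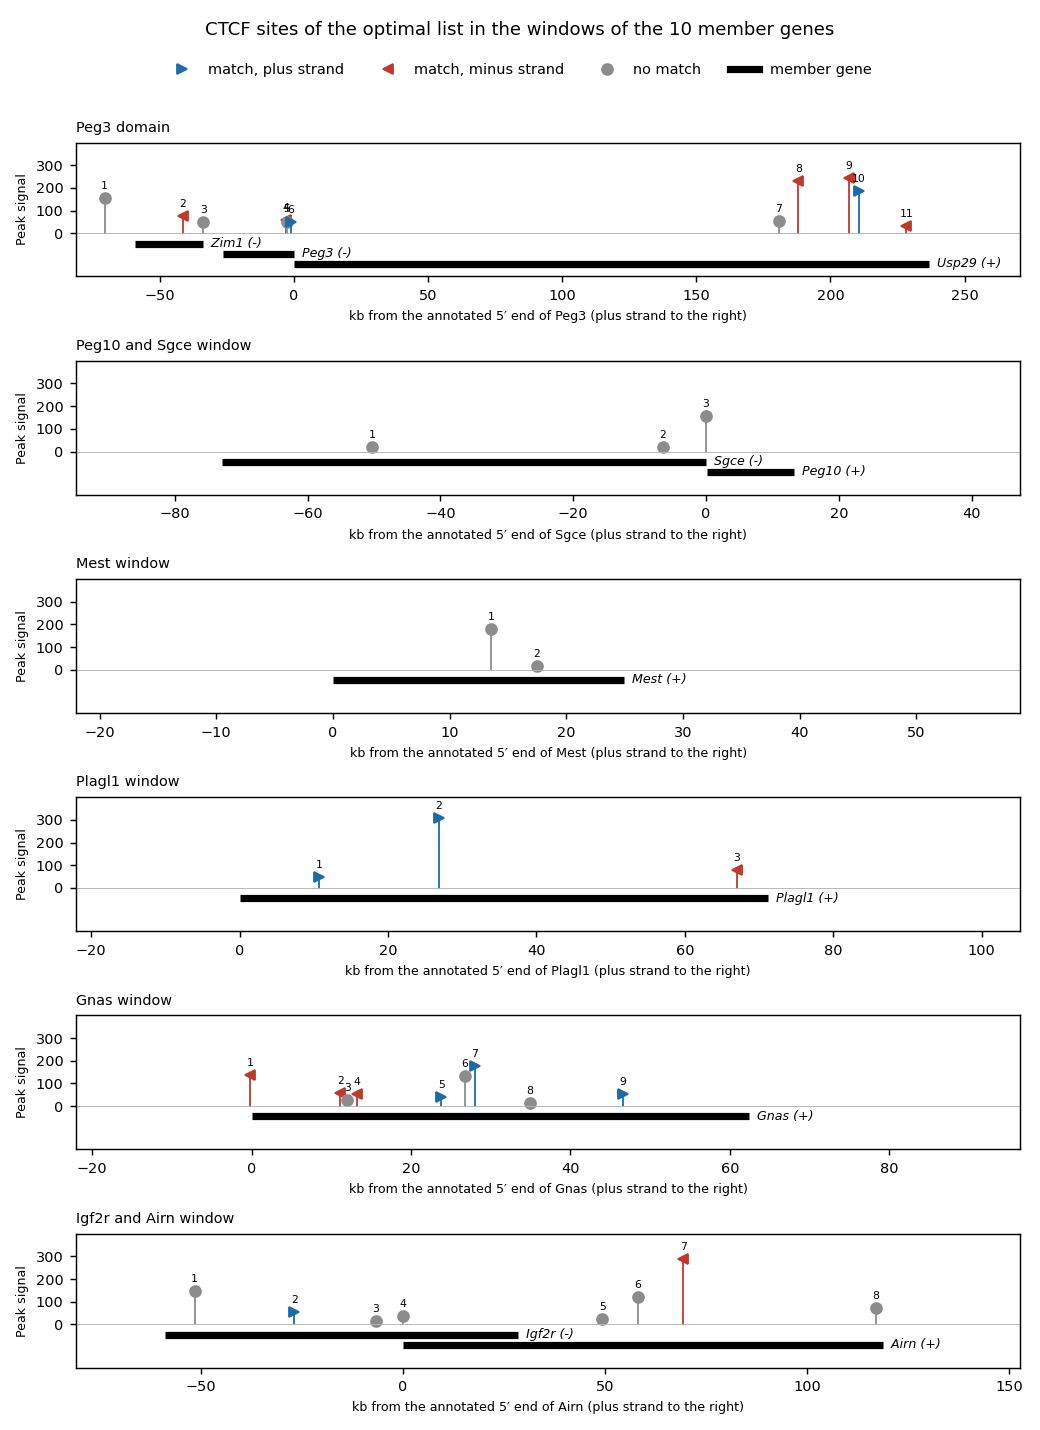
Peak signal (vertical axis, the authors' peak value on a linear scale) of the 36 optimal sites against distance in kb from the annotated 5′ end of 1 gene per locus. Arrowheads point along the strand of the CTCF matrix match, grey circles had no match within 50 bp, black bars are the member genes with their strand, and numbers are the site numbers. The tallest stems, Plagl1 site 2 at 308.9 and Igf2r and Airn site 7 at 289.0, stand inside genes and away from their 5′ ends.

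Peg10 and Sgce are transcribed away from each other from a shared start region on chromosome 6. Peg10 derives from a retrotransposon and is needed for the placenta, and Sgce encodes epsilon-sarcoglycan. Site 3, with its summit at 4747190, sat at this shared region, 116 bp upstream of the Peg10 5′ end and 17 bp inside Sgce, in its UTR. Its signal was 156.2 in the optimal list, at percentile 75.8, and 86.7 in replicate 1 and 67.4 in replicate 2. It was the only strong site of the window. Site 1, in an Sgce intron, had signals of 18.8, 7.64 in replicate 1 and 8.39 in replicate 2. Site 2, also in an Sgce intron and 507 bp upstream of an internal Sgce transcript start, had 19.4, with 12.1 and 6.98 in the replicates. Both weak sites fell below percentile 10 and were absent from the conservative list. None of the 3 sites held a CTCF matrix match, the best score at site 3 being 4.22 bits beside a threshold of 10.7 bits. The nearest optimal site outside this window lay 1.43 kb beyond its left edge, with a signal of 21.0.

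Mest, which encodes a protein of the alpha/beta hydrolase fold, had 1 strong and 1 weak site. Site 1, at 30737132, had a signal of 179.6 at percentile 79.6, with 98.8 in replicate 1 and 80.7 in replicate 2. It lay in a Mest intron, 918 bp upstream of a group of 3 transcript starts that begins at 30738050, and 13585 bp from the 5′ end of the gene record. Site 2, at 30741002, lay 220 bp past another internal start and 297 bp upstream of Mir335, a microRNA gene within Mest. Its signal was 14.6, at percentile 1.8, with 6.96 and 6.97 in the replicates. Site 1 was the strongest of the 18 sites without a matrix match, its best score being -4.80 bits. The conservative list placed 2 further entries at the same start group, 115 bp upstream with a signal of 13.95 and 79 bp downstream with 11.7. Both summits fell in a single replicate 1 peak with a signal of 13.5 and in no replicate 2 peak.

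The Peg3 domain held 11 sites, all in the conservative list, with sites of middling signal inside Peg3 and 3 strong ones far inside Usp29. Peg3 encodes a zinc finger protein and Usp29 a ubiquitin-specific protease, and both are expressed from the paternal copy. Their 5′ ends lie 147 bp apart and point away from each other. No optimal site lay within 1 kb of this shared start. The nearest, site 6 at 6729271, lay in a Peg3 intron 1148 bp past the nearest Peg3 transcript start and 1307 bp from that of Usp29, just outside the 1 kb limit. Sites 4, 5 and 6 formed a cluster of 1870 bp in Peg3 introns. Their optimal signals were 57.9, 52.1 and 48.3, close to each other. Replicate 1 gave 32.9, 23.7 and 24.2, and replicate 2 gave 28.9, 28.4 and 24.0. Site 4 had a match on the minus strand and site 6, whose sequence is given above, on the plus strand, so the pair pointed away from each other. Site 5 scored 10.02 bits, just under the threshold.

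The strong group lay 187.9 kb to 210.3 kb inside Usp29, in its introns. Site 8 had an optimal signal of 230.5, with 129.8 in replicate 1 and 100.4 in replicate 2. Site 9 had 243.5, with 128.4 and 114.5, and site 10 had 185.1, with 91.5 and 92.0. All 3 carried a match, sites 8 and 9 on the minus strand and site 10 on the plus strand. Site 7, nearer the 5′ end of Usp29, had a signal of 52.6 and no match. Site 11, in introns of both Usp29 and the antisense gene Zim3, had 33.8, with 14.04 and 18.7 in the replicates. The 3 strong sites ranked between percentile 80.5 and 88.6 in the optimal list, against 41.9 to 47.7 for the cluster in Peg3.

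Zim1, a zinc finger gene expressed from the maternal copy, had a site at each of its 2 groups of starts. Site 3, at 6696662, lay 212 bp upstream of its 5′ end, with a signal of 50.8 and replicate signals of 30.4 and 24.0, and had no match. Site 2, at 6688935, lay 263 bp upstream of an internal start in a Zim1 intron, with a signal of 76.3 and replicate signals of 41.8 and 32.1. It held a match on the minus strand. Site 1, in an intron of the neighbouring gene Zim2, had 153.6 at percentile 75.3 and no match, with a best score of -10.7 bits.

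Plagl1, a zinc finger transcription factor gene also known as Zac1, held the strongest site of all 36. Site 2, at 13087404 in a Plagl1 intron, had a signal of 308.9, rank 2678 and percentile 95.1 in the optimal list. Replicate 1 gave 173.8, at percentile 95.7, and replicate 2 gave 135.6, at percentile 94.2. It lay 3287 bp upstream of the start group at 13090691 that 22 of the 25 Plagl1 transcripts use, and pointed towards it. No optimal site lay within 1 kb of any Plagl1 start. Site 3, in a coding exon near the 3′ end of the gene, had 79.1, with 41.0 and 37.4 in the replicates. Its match was on the minus strand, so sites 2 and 3 faced each other across 40.1 kb. Site 1 had 46.8 and differed most in percentile between the replicates among the 36 sites. Replicate 1 listed it at 16.1 and percentile 22.6, and replicate 2 at 29.2 and percentile 50.8. Its match, on the plus strand, scored 21.1 bits.

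Gnas, which encodes the alpha subunit of the stimulatory G protein, had 9 sites along 24 annotated transcripts with 6 groups of starts. In textbook order its promoters are those of Nesp, the extra-large form, exon 1A and the G protein subunit itself, with the antisense RNA Nespas. Nespas, exon 1A and the extra-large form start in DNA methylated on the maternal copy, and Nesp in DNA methylated on the paternal one. Site 1, at 174284179, lay 141 bp upstream of the most upstream Gnas start. Its signal was 137.2 at percentile 72.1, with 74.8 in replicate 1 and 61.5 in replicate 2. Sites 2, 3 and 4 formed a cluster of 2063 bp around the 5′ end of Nespas. Site 2 lay 2 bp inside Nespas, with a signal of 58.6, also in an exon of the gene model Gm27849 and within 1 kb of the start of Gm27869. Site 3 lay 898 bp upstream of Nespas, in a Gnas UTR, with 29.0 and no match. Site 4 had 52.1 and lay 362 bp upstream of the start group that 7 Gnas transcripts use. Signals of site 2 were 39.0 in replicate 1 and 19.9 in replicate 2, the highest ratio of replicate 1 to replicate 2 among the 36 sites at 1.97. Those of site 3 went the other way, with 11.6 and 17.2, and those of site 4 were 29.0 and 21.2. Sites 2 and 4 pointed along the minus strand, as did site 1.

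A second Gnas cluster, sites 5, 6 and 7, spanned 4210 bp of introns. Site 5 had a signal of 40.9, site 6 had 134.9 and site 7 had 177.7, the strongest in the locus. Replicate signals were 22.9 and 16.2 at site 5, 71.9 and 63.0 at site 6, and 99.9 and 76.4 at site 7. Sites 5 and 7 held matches on the plus strand and site 6 none. Site 8 was the weakest of the 36, with 13.7 and replicate signals of 6.53 and 6.92, and was absent from the conservative list. Site 9, at 174330877, lay 590 bp past a start of the group at 174330006, with 54.1 and replicate signals of 31.2 and 24.4. It lay in introns of Gnas and of Gm20721, a protein-coding gene model on the opposite strand. The conservative list had a further entry 854 bp upstream of that group, with a signal of 25.4. From low to high coordinate the 6 Gnas matches ran minus, minus, minus, plus, plus, plus.

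Igf2r encodes the receptor that clears insulin-like growth factor 2, and Airn is the antisense RNA that starts inside it and silences it on the paternal copy. Site 4, at 12741384, lay 73 bp inside Airn and 1 bp from another Airn start, in an Igf2r intron. Its signal was 35.5 at percentile 30.7, with 22.9 in replicate 1 and 12.7 in replicate 2, and it had no match. The 5′ end of Igf2r had no optimal site, the nearest lying 20974 bp upstream of it. The strong sites of the locus lay elsewhere. Site 7, in an Airn intron, had 289.0 at percentile 93.4, with 158.8 and 132.3 in the replicates. Site 1, in an Igf2r intron, had 147.9, with 87.4 and 63.7, and scored 10.4 bits, just under the threshold. Site 6, in an Airn intron and an intron of the non-coding CT030636.2, had 118.6, with 60.3 and 57.1, and no match. Site 2, in an Igf2r intron, had 55.4, and site 8, in introns of Airn and Mas1, had 72.5. Site 5, in introns of Airn and of CT030636.1, had 23.8. Site 3, in an Igf2r intron, had 16.3 and was absent from the conservative list. Sites 2 and 7, the only matched ones, faced each other across 96.3 kb. Strong sites stood just beyond both edges of this window, with a signal of 204.0 at 1.705 kb beyond the left edge and 223.2 at 0.252 kb beyond the right edge. The count of sites for this locus therefore depends on the 20 kb limit.

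Across the members, 6 of 10 had an optimal site within 1 kb of an annotated transcript start, namely Zim1, Peg10, Sgce, Mest, Gnas and Airn. Among all 21938 protein-coding genes the share was 34.4%. By the 5′ end of the gene record alone it was 5 of 10, without Mest, beside 26.6% of protein-coding genes. Peg10 and Sgce share 1 site, members were not drawn independently, and Airn is not protein-coding, so no test was made. Of the 33 groups of starts that the 10 genes have, 11 had such a site, beside 18.1% of the start groups of protein-coding genes. The sites behind these calls numbered 10, with a median signal of 53.1, beside 58.3 for the 26 sites farther from member starts. Those 26 include Gnas sites 2 and 3, which lie within 1 kb of the start of Nespas, not a member.

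The 4 members without such a site were Peg3, Usp29, Plagl1 and Igf2r. The pooled list, which is not thresholded on IDR, had an entry within 1 kb at 5 of their 13 groups of starts. The share over all start groups was not computed for the pooled list, so this count has no comparison. At the shared start of Peg3 and Usp29 the pooled list had an entry with a signal of 18.99, 71 bp inside Peg3 and 230 bp upstream of Usp29. Replicate 1 listed 16.6 there and replicate 2 listed 4.12. At the start group of Plagl1 with 22 transcripts the pooled entry had 11.5, with 8.28 in replicate 1 and 2.86 in replicate 2. At the Gnas start group at 174327570, which has no optimal site, the pooled entry had 7.60, replicate 1 listed 4.78 and replicate 2 no entry. At the 5′ end of Igf2r the pooled list had no entry within 1 kb, while replicate 1 listed 4.92 and replicate 2 listed 3.35. Such entries were common: 69.3% of protein-coding genes had a pooled entry within 1 kb of a start, and so had all 10 members at 1 or another of their starts.

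**Figure D2:**
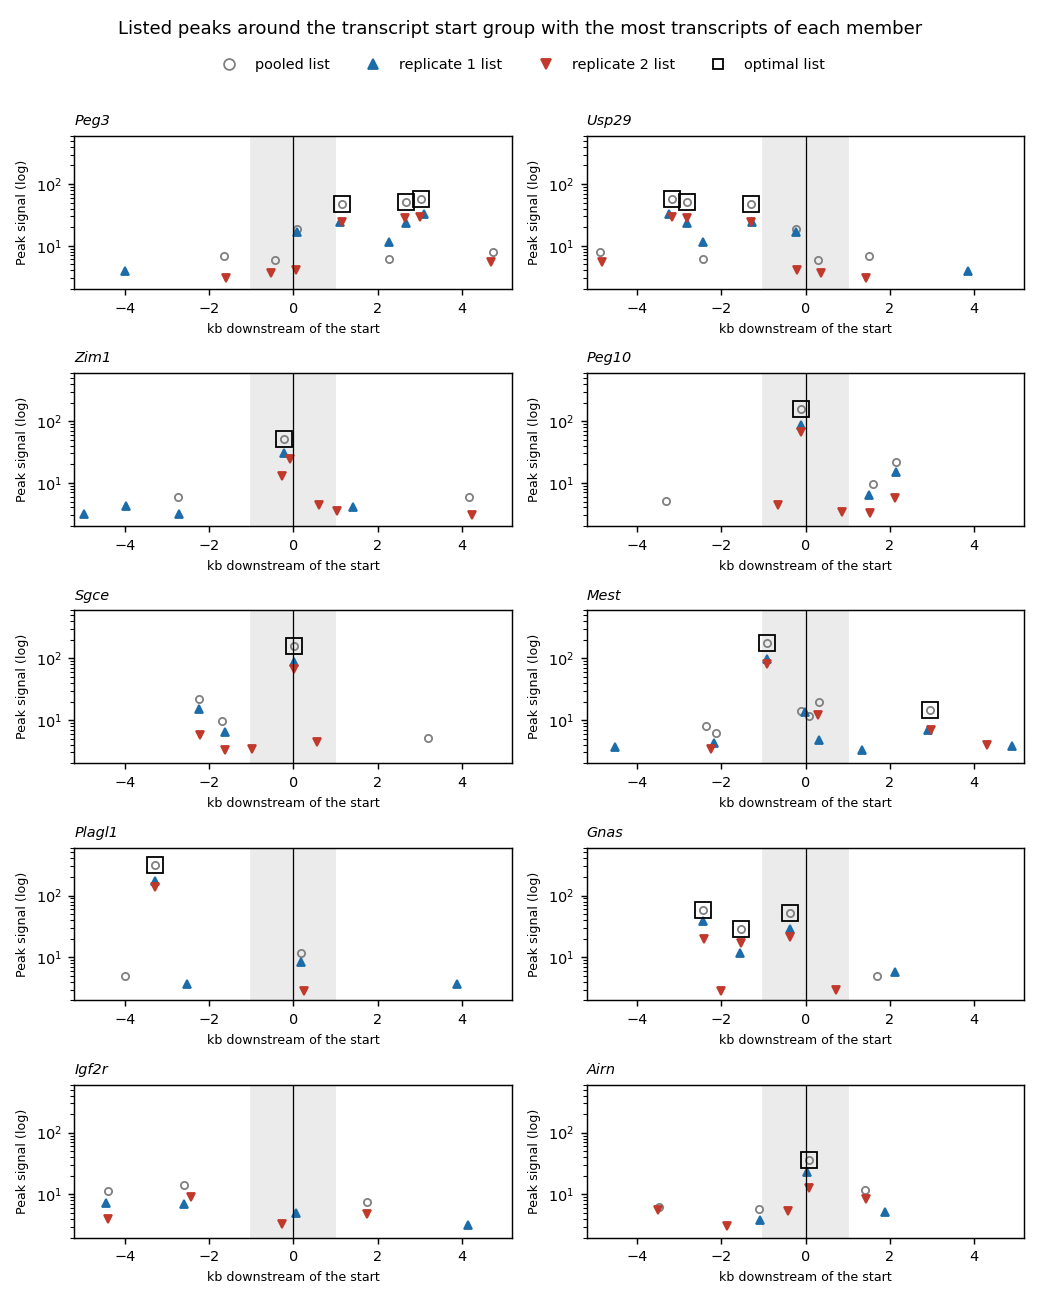
Listed peaks within 5 kb of the start group with the most transcripts of each member (at equal numbers, the most upstream group), with distance in kb downstream of the start on the horizontal axis and peak signal on a log axis. Grey circles are pooled peaks, triangles the replicate lists, black squares mark entries of the optimal list, and shading covers 1 kb either side of the start. Signals are not scaled between lists. Squares fall in the shaded band for Zim1, Peg10, Sgce, Mest, Gnas and Airn, and outside it or nowhere for Peg3, Usp29, Plagl1 and Igf2r.

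Both replicates listed every one of the 36 sites, with the summit inside a peak of each list, as they did for 97.8% of all optimal sites. The optimal list had already been thresholded on reproducibility, so this was largely built in. At 34 of the 36, both replicates had a summit within 50 bp. The exceptions were Peg3 domain site 3, with the nearest replicate 2 summit 66 bp away, and site 4, with that of replicate 1 73 bp away. The replicate 2 signal given for site 3 is that of a stronger peak with its summit farther off. Conservative peaks held the summit of 31 of the 36, or 86.1%, beside 87.5% of all optimal sites. Replicate 1 gave the higher signal at 27 of 36 sites. The ratio of replicate 1 to replicate 2 had a median of 1.22 and ran from 0.55 to 1.97, and the median over all optimal sites was 1.23. From the 5th to the 95th percentile of all sites that ratio ran from 0.719 to 2.23. Gnas site 3 and Plagl1 site 1 fell below that range. Replicate percentiles of the member sites lay a median of 3.50 points apart, beside 4.68 points over all sites, and at most 28.2 points apart, at Plagl1 site 1.

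**Figure D3:**
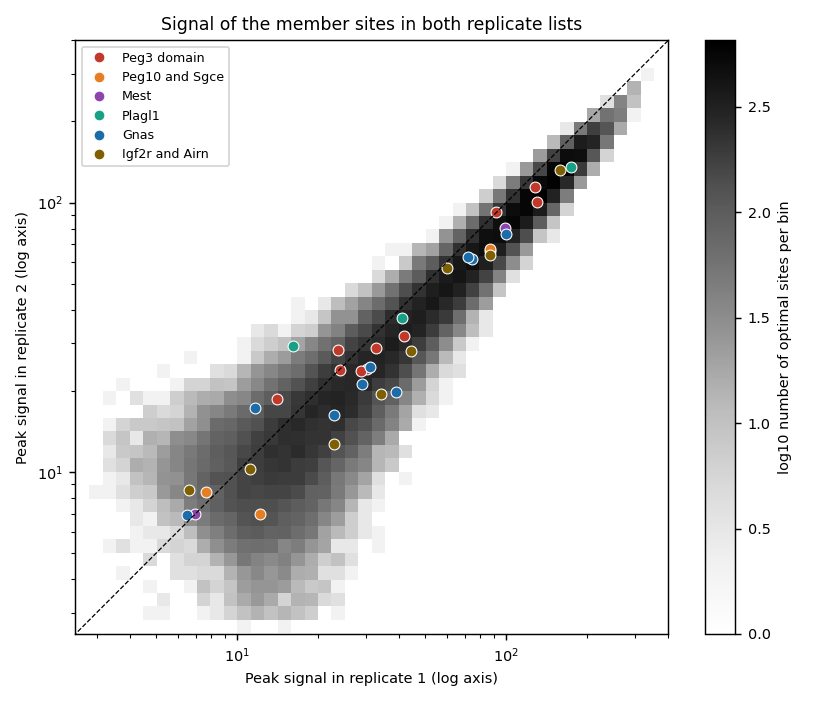
Peak signal in replicate 1 (horizontal axis) and replicate 2 (vertical axis), both on log axes and not scaled to each other, for the 36 member sites (coloured points, by locus) over all optimal sites listed in both replicates (grey bins, darker for more sites). The dashed line marks equal signal. Most member sites lie below the line, with replicate 1 higher at 27 of 36, and the Plagl1 point farthest above it is site 1, at 16.1 and 29.2.

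A CTCF matrix match within 50 bp of the summit was found at 18 of 36 sites, or 50% (95% Wilson interval 34.5 to 65.5, which covers counting error only). The share was 59.6% of all optimal sites. In windows shifted by 1 kb it was 1.00%, which the threshold was set to give. The match was on the plus strand at 8 sites and on the minus strand at 10, beside 16383 on the plus strand among all 32765 matched optimal sites. Plagl1 had a match at 3 of 3 sites, the Peg3 domain at 7 of 11, Gnas at 6 of 9, and Igf2r and Airn at 2 of 8. The 5 sites of Peg10, Sgce and Mest had none. Among the 9 sites in the strongest 25% of the list, 6 had a match, beside 82.4% of all optimal sites of that strength. The 3 without were Peg3 domain site 1 and the strong sites of Mest and of Peg10 with Sgce. Searching the whole listed peak in place of 50 bp, at the same threshold, gave 17 of 36, beside 61.1% of all optimal sites. The site lost was site 4 of the Peg3 domain, whose match at 6727398 to 6727417 runs past the peak's last base at 6727411. Of the 14 neighbouring pairs of matched sites within a locus, 4 faced each other, 3 pointed apart and 7 pointed the same way. Facing pairs made up 24.2% of all adjacent matched pairs in the genome.

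CpG content was higher at the member sites than at the typical optimal site. The ratio of observed to expected CpG within 100 bp of the summit had a median of 0.399, beside 0.224 over all optimal sites, and was above that second value at 25 of 36. Within 1 kb of a member's transcript start the median was 0.626 over 10 sites, and over the 26 farther ones it was 0.335. Those 26 include Gnas sites 2 and 3, within 1 kb of the start of Nespas, which is not a member. Their ratios were 0.883 and 0.605. For scale, the median over protein-coding promoters of 300 bases was 0.524, with a median GC content of 55%. No value was computed for all optimal sites near starts, so a difference from other promoter sites is not shown. Median GC content was 55.5% at the 10 near sites and 48.5% at the 26 farther ones, and 49.8% over all 36 beside 49.3% over all optimal sites. The highest ratios were at Gnas site 4 (0.914), Gnas site 2 (0.883) and Peg3 domain site 10 (0.838). Inside the match itself, 10 of the 18 matched sites held a CpG, beside 37.8% of all matched optimal sites. At matrix positions 13 and 14, counted from the first capital base, 5 of 18 read CG, beside 29.7% of all matched optimal sites. Those 5 were Peg3 domain sites 9 and 10, Plagl1 site 3, and Gnas sites 2 and 4. Whether any of these bases were methylated was not measured.

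**Figure D4:**
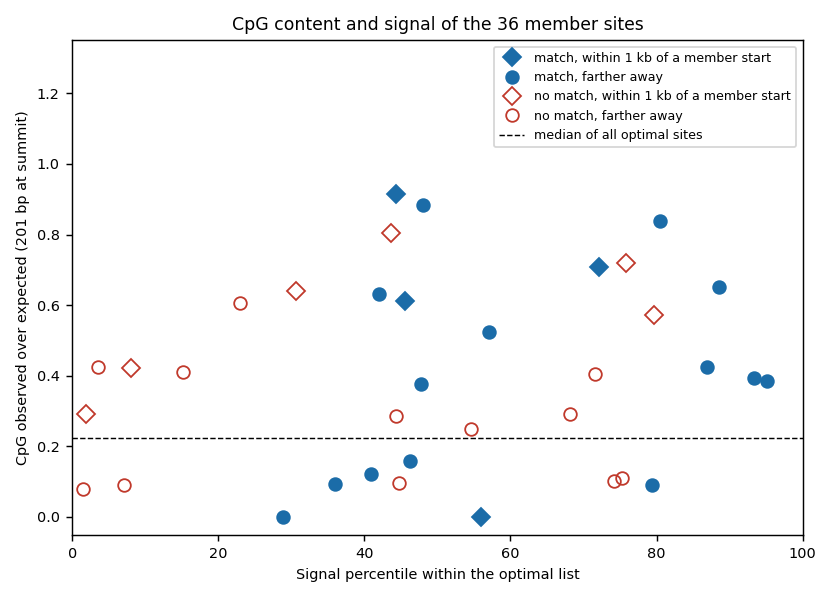
Observed over expected CpG within 100 bp of each summit (vertical axis, a ratio) against the percentile of the site's signal within the optimal list, for the 36 member sites. Filled symbols have a CTCF matrix match, open ones none, diamonds lie within 1 kb of a member's transcript start, circles farther away, and the dashed line is the median of all optimal sites at 0.224. Of the 10 diamonds, 9 lie above the line, which is not matched for distance to a start.

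The ZFP57 word TGCCGC, searched on both strands within 100 bp of the summit, occurred at 4 of 36 sites, beside 5.23% of all optimal sites. They were Peg3 domain site 6, Peg10 and Sgce site 3, Gnas site 4, and Igf2r and Airn site 4. These are the site nearest the shared Peg3 and Usp29 start, and sites at the shared Peg10 and Sgce start, upstream of a Gnas start group and at the Airn start. The word holds a CpG, and the share of all optimal sites is not matched for CpG content or distance to a start. At Gnas site 4 the word overlapped the CTCF match given above, in the bases tGCCGC at its left end, and at the other sites it did not overlap one. In the 300 bases from 250 before to 50 after each start group's 5′ start, the word occurred in 8 of 33 groups, beside 13.3% of protein-coding promoters. Promoter shares here and below take only the 5′ end of each gene, so they are not matched to the members' start groups. The Peg10 and Sgce stretches overlap, and the same copy of the word was counted in both. The word GCCATNTT of YY1, a zinc finger protein known to bind repeated sites inside Peg3, occurred at 3 of 36 sites, beside 4.09% of all optimal sites. Those were Peg3 domain sites 4, 5 and 7, with 2 copies at site 4. It occurred in 0 of the 33 start groups' 300 bases, beside 6.16% of protein-coding promoters. A word match describes the sequence and shows no binding by either factor.

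With neighbours at most 5 kb apart joined, the 36 sites formed 28 clusters, of which 23 were single sites. The other 5 were Peg3 domain sites 4 to 6 and 9 to 10, the Mest pair, and Gnas sites 2 to 4 and 5 to 7. They held 13 sites, beside 40.5% of all optimal sites that had another summit within 5 kb. The closest pair was Peg3 domain sites 4 and 5, 352 bp apart. Soft-masked sequence, which marks repeats, held 5 of 36 summits, beside 19.6% of all optimal sites. They were Peg3 domain sites 2, 5 and 11, Mest site 2 and Plagl1 site 1. Among 40 other imprinted genes or close neighbours of imprinted genes, listed for context, 13 had an optimal site within 1 kb of a transcript start, or 32.5%, close to the 34.4% of all protein-coding genes.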

How the data were processed

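CTCF ChIP-seq peaks of 2 embryonic lung samples were used as deposited, in 5 narrowPeak lists on mm10, per the file headers and the deposited README. The authors called peaks on each replicate and on pooled reads with a control file, and derived the optimal and conservative lists from these. The sources used here do not name the aligner, the peak caller or the IDR threshold. The peak signal was deposited as the peak caller gave it, so percentiles were taken within a list. The −log10 q values deposited beside it were not used. The replicate, pooled and thresholded lists held 300000, 300000, 54953 (optimal) and 53112 (conservative) peaks, of which 10 optimal peaks lay off the assembled chromosomes and were left out. Depth is unknown.

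A site is the base at peak start plus summit offset. A replicate's value is that of its strongest peak holding the summit, and replicate percentiles are among the optimal sites listed in that replicate. Windows ran 20 kb beyond each GENCODE M21 gene record, and start groups joined transcript starts at most 1 kb apart. The sequence was GRCm38 patch release, whose chromosomes held every peak. To find matches, a matrix of 20 bases was built in 15 rounds on 3000 training sites, the strongest on odd-numbered autosomes, and each round dropped the lowest-scoring 30%. The threshold of 10.7 bits let 1% of windows shifted by 1 kb pass. Of the 36 sites, 1 was among the training sites, namely Igf2r and Airn site 7, whose match is shown above. The scan was tested on simulated data with planted matches.

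No test between conditions was possible with 1 group, and none was made: counts and medians are given beside those of all sites or genes. The members, lists and rules were chosen with earlier results of these data known. Named were all 10 members, every site in their windows, the matches of the 5 strongest matched sites, and other genes that hold a site or start within 1 kb of it. A further 4 matches were added after their values were seen. Expression was not measured, so the labelled tissue was not checked against markers. Alternatives were other lists, each replicate left out, windows, start sets, motif settings and cluster distances. Scripts ran in Python 3.11.15 with pandas 2.3.3, scipy 1.17.1, numpy 2.4.6 and matplotlib 3.10.9.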

Additional observations from a re-analysis of the deposited data

How the results depend on the processing

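Of 45 values recomputed under alternatives, 36 stayed close to the reported ones: counts within 1.5 times, the matched share within its interval, and the median percentile within 0.778 points, the SD of the replicates' medians. With the strongest 10000 optimal sites only, the windows held 4 sites in 4 clusters, 0 members had a site at a start, all 4 sites (100%) had a match, and the median percentile was 50.6. The matched share was 33.3% within 100 bp of the summit, with the threshold reset so that the same share of shifted windows passed, and 11.1% with the threshold passed by 0.1% of shifted windows. The share of all optimal sites was not computed at either setting, nor among the strongest 10000. These shares therefore do not show whether member sites differ from other sites. Among the strongest 10000, the share of protein-coding genes with a site at a start was not computed either. The count of 0 members therefore has no comparison. The conservative list gave a median percentile of 45.9. Leaving out a replicate meant taking the strongest peaks of the other replicate's list, as many as the optimal list holds, with no new IDR step. It gave 36 to 40 sites, 6 to 8 members with a site at a start and 25 to 26 clusters. The matched share was 42.5% to 47.2% and the median percentile 46.5 to 50.5. The share of protein-coding genes with a site at a start was not computed for these lists. Without replicate 2 the members gained were Peg3 and Usp29, at their shared start. With 5 kb either side of a start 9 members had a site, all but Igf2r. The share of all protein-coding genes at that width was not computed, so this count has no comparison. Among the strongest peaks of each replicate, 31 sites were listed in both. Searching the whole peak for matches was added after seeing the data. The causes of these shifts were not tested. No paired analysis was possible because there is 1 group. Depth is unknown, so a start with no optimal site is not shown to be free of CTCF.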
